A study of Mus musculus with 2 samples.

Results

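The 6 leukocyte microRNA genes Mir142, Mir223, Mir150, Mir155, Mir146 and Mir146b were followed in growing calf muscle. They were chosen by name, as microRNAs of myeloid cells, of lymphoid cells and of inflammatory signalling, with earlier results of these data known. The rule used no measured value. All 6 were found by Ensembl identifier among the 2202 microRNA genes of the tables. Small RNA under 30 nt had been counted in gastrocnemius, the large calf muscle, of male B6CASTF1/J mice at 14 days of age. B6CASTF1/J mice are the first-generation cross of C57BL/6 and CAST/EiJ parents. There was 1 group of 2 biological replicates with 1 library each, and no second tissue, age, sex, genotype or treatment. The labels mention several males and give both samples the same donor identifier, and leave unsaid how many animals gave each sample. The spread between the libraries may therefore be partly technical. Replicate 1 had 2743657 counts assigned to microRNA genes and replicate 2 had 2211254.

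A microRNA gene is transcribed as a hairpin, from which Dicer cuts a 5′ and a 3′ mature arm. A mature arm guides the silencing complex to messenger RNAs that pair with its seed, bases 2 to 8. miR-142 is known from blood cells of nearly all lineages. miR-223 is known from granulocytes, monocytes and platelets, and miR-150 from mature B and T lymphocytes, where it restrains the transcription factor Myb. miR-155 is made from the host transcript Mir155hg in activated lymphocytes and macrophages and restrains the signalling inhibitors Socs1 and Inpp5d. miR-146a is induced by NF-kB and restrains Irak1 and Traf6, adaptors of Toll-like receptor signalling. miR-146b is its paralog. miR-146a and miR-155 are also known from endothelial and other cells outside the blood.

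The mature arms are shown because the seed sets the targets, and because similar arms decide whether a read can be assigned to 1 locus. RefSeq (GRCm38.p6) gave 11 mature sequences for the 6 genes, printed 5′ to 3′ with the seed in capitals, and 5 of the 6 hairpins. miR-150-5p and the Mir150 hairpin are neither shown nor searched here.
mmu-miR-142a-5p: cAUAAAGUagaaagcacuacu
mmu-miR-142a-3p: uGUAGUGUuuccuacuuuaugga
mmu-miR-223-5p: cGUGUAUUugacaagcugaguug
mmu-miR-223-3p: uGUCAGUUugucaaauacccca
mmu-miR-150-3p: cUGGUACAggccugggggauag
mmu-miR-155-5p: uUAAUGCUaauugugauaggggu
mmu-miR-155-3p: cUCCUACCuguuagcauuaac
mmu-miR-146a-5p: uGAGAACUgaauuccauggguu
mmu-miR-146a-3p: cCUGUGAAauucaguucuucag
mmu-miR-146b-5p: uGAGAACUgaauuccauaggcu
mmu-miR-146b-3p: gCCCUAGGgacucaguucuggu

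The 5p arms of miR-146a and miR-146b have the same seed, GAGAACU, and no other pair among these arms does. None of the other 9 arms shown has its seed in another mature microRNA of the RefSeq table. Over their 22 bases the miR-146 5p arms are identical at 20, and counted from the 5′ end of miR-146a-5p they differ by G18A and U21C in miR-146b-5p. Outside this pair, and leaving out Mir142b, which overlaps Mir142 on the opposite strand, the longest run that an arm shown has in common with another of the 1005 RefSeq hairpins, on either strand, is 13 bases, between miR-142a-5p and Mir3964. The hairpins of Mir146 and Mir146b are shown with their common run of 21 bases in capitals, which starts before the mature arm.
Mir146: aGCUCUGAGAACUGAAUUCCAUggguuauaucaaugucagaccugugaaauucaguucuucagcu
Mir146b: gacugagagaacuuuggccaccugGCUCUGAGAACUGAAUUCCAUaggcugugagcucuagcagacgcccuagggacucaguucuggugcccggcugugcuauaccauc

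In the deposited tables a read that mapped to several loci is in no gene's count. A read of a whole miR-146a-5p or miR-146b-5p arm reaches the differing bases, and a read that ended within their common 17 bases would be in neither count. The number of such reads is not in the tables. Counts are per hairpin and do not separate the arms.

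Of the genes known chiefly from myeloid and other blood cells, Mir142 lies at chr11:87756864-87756927 on the plus strand, in an intron of the long noncoding RNA gene Mir142hg (mm10, GENCODE vM21, as for all positions here). It had 543 counts in replicate 1 and 459 in replicate 2, which is 198 and 208 CPM (its count relative to all counts assigned to microRNA genes, on the usual CPM scale). The mean was 203 CPM ± 6.83 (SD, n = 2). Mir223, at chrX:96242817-96242926 in an exon of the noncoding gene F630028O10Rik, had 380 and 307 counts, which is 138.5 and 138.8 CPM. Its mean was 139 CPM ± 0.236 (SD, n = 2). Each of these genes was at nearly the same level in both libraries. Within each library Mir142 stood above Mir223, by 1.43 times in replicate 1 (exact binomial 95% interval 1.25 to 1.63) and 1.5 times in replicate 2 (1.29 to 1.73).

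The lymphocyte gene Mir150, at chr7:45121757-45121821, overlaps no other annotated gene. It had 855 counts in replicate 1 and 733 in replicate 2, which is 312 and 331 CPM, with a mean of 322 CPM ± 14.0 (SD, n = 2). It stood above Mir142 in both libraries, by 1.57 times in replicate 1 (exact binomial 95% interval 1.41 to 1.76) and 1.60 times in replicate 2 (1.42 to 1.80).

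Of the genes of inflammatory signalling, Mir155, at chr16:84714140-84714204 in an exon of its host gene Mir155hg, had 903 counts in replicate 1 and 819 in replicate 2. That is 329 and 370 CPM, with a mean of 350 CPM ± 29.2 (SD, n = 2). Mir155 stood at 1.06 times Mir150 in replicate 1 (exact binomial 95% interval 0.961 to 1.16) and 1.12 times in replicate 2 (1.01 to 1.24). So Mir155 stood slightly above Mir150 within both libraries, but the interval of replicate 1 included a ratio of 1. Set across the libraries, their CPM values overlapped.

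Mir146, which encodes miR-146a, was the highest of the 6. It lies at chr11:43374397-43374461 on the minus strand, overlaps no other annotated gene, and has Pttg1 as its nearest protein-coding gene at 45789 bases. It had 1561 counts in replicate 1 and 1107 in replicate 2, which is 569 and 501 CPM, with a mean of 535 CPM ± 48.3 (SD, n = 2). Both values lay above those of the other 5 genes. Mir146 stood at 1.73 times Mir155 in replicate 1 (exact binomial 95% interval 1.59 to 1.88) and 1.35 times in replicate 2 (1.23 to 1.48), so this ratio differed between the libraries by more than counting error.

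Its paralog Mir146b was nearly uncounted. Mir146b lies at chr19:46342762-46342870, in an intron of the protein-coding gene Mfsd13a and on its strand. It had 3 counts in replicate 1 and 1 in replicate 2, no more than the 3 counts that a count of 0 allows. In CPM this was 1.09 (95% Wilson interval 0.372 to 3.22) for replicate 1, beside 0.452 (0.0798 to 2.56) for replicate 2. Mir146 had 520.3 times its counts in replicate 1 (exact binomial 95% interval 178 to 2526) and 1107 times in replicate 2 (198 to 43763). Of these paralogs with a common seed, the counts therefore came almost wholly from Mir146.

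**Figure D1:**
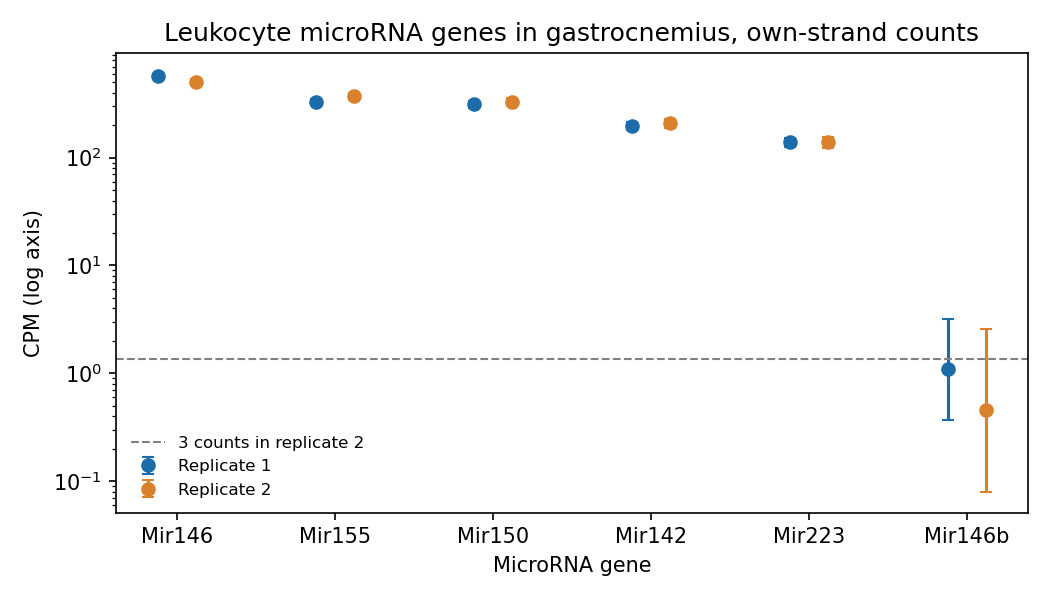
CPM of the 6 leukocyte microRNA genes on a log axis, with replicate 1 to the left of replicate 2 for each gene and 95% Wilson intervals as bars (counting error only). Mir146 sits at 569 and 501 CPM, 4 genes lie between 138.5 and 370 CPM, and Mir146b lies at 1.09 and 0.452 CPM beside the dashed line that marks 3 counts in replicate 2.

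The order by mean CPM was thus Mir146, Mir155, Mir150, Mir142, Mir223 and Mir146b. The only neighbours in it whose values overlapped were Mir155 and Mir150. CPM is not divided by length, since a small RNA read covers a mature arm and not the hairpin. Divided by the length of the annotated hairpin the order was the same, with Mir142 at 2.51 ± 0.0804 times Mir223 (SD, n = 2), whose hairpin is longer. Among the 629 genes with a count, the ranks by mean CPM were 101 for Mir146, 117 for Mir155, 119 for Mir150, 141 for Mir142, 160 for Mir223 and 428 for Mir146b. Of these 6 genes, 5 passed the minimum of 10 CPM in both libraries, as did 258 genes in all.

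**Figure D2:**
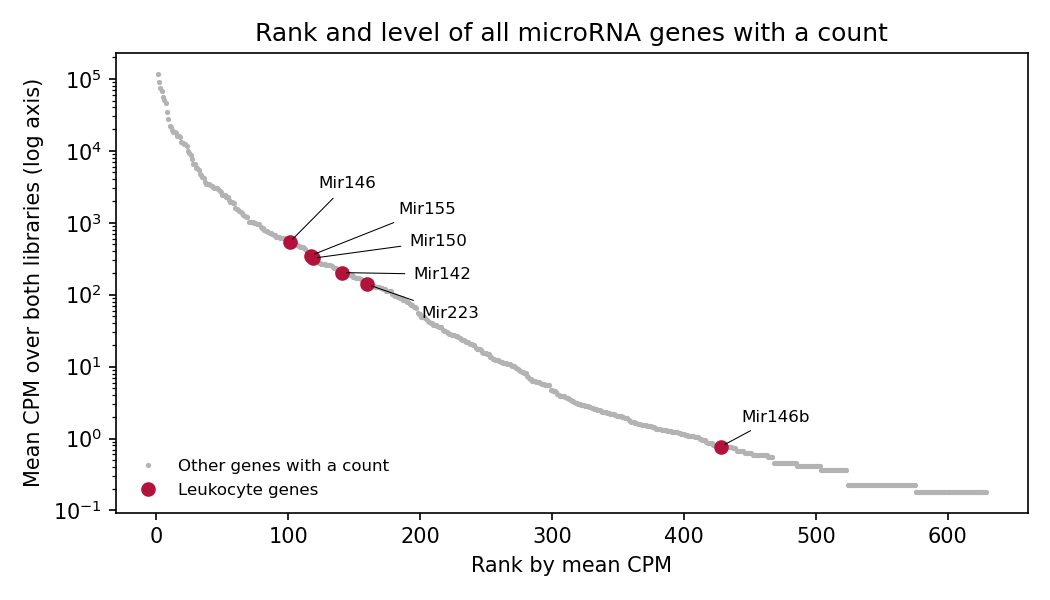
Mean CPM over both libraries on a log axis against the rank by mean CPM, for the 629 genes with a count, with the 6 leukocyte genes in red. Of them, 5 lie between ranks 101 and 160, and Mir146b lies at rank 428.

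The genes nearest in level to each of the 6 were also read. Likeness here is the difference in mean log2 CPM over the 2 libraries, and it says only that the levels were alike. Mir134 was next above Mir146, at a difference of 0.05, and Mir106b next below it. Mir155 lay between Mir136 and Mir25, and Mir25 also stood next above Mir150, with Mir500 below it. Mir128-2 and Mir679 enclosed Mir142, and Mir374b and Mir30b enclosed Mir223. In every case the neighbour's CPM over the libraries overlapped that of the leukocyte gene. Picking neighbours by mean CPM in these same libraries nearly fixes such overlap in advance. Gm47277 and Mir1b, the neighbours of Mir146b, had the same 3 and 1 counts. Tied genes were ordered by name, so these neighbours and the rank of 428 hold only within the tie.

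Together the 6 genes had 4245 counts in replicate 1 and 3426 in replicate 2. That is 0.155% of assigned counts in both, with 95% Wilson intervals of 0.150 to 0.159 in replicate 1 and 0.150 to 0.160 in replicate 2. The summed level was 1547 CPM in replicate 1 and 1549 in replicate 2. The make-up of that sum was less even. Mir146 gave 36.8% (95% Wilson interval 35.3 to 38.2) of it in replicate 1, against 32.3% (30.8 to 33.9) in replicate 2. Mir155 gave 21.3% in replicate 1 (20.1 to 22.5) and 23.9% in replicate 2 (22.5 to 25.4). Mir150 gave 20.1% and 21.4%, Mir142 12.8% and 13.4%, Mir223 8.95% and 8.96%, and Mir146b 0.0707% and 0.0292%. The lower share of Mir146 in replicate 2 was taken up mostly by Mir155 and Mir150, while that of Mir223 hardly differed. In bulk tissue, fewer cells of a type and less RNA per cell cannot be told apart.

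**Figure D3:**
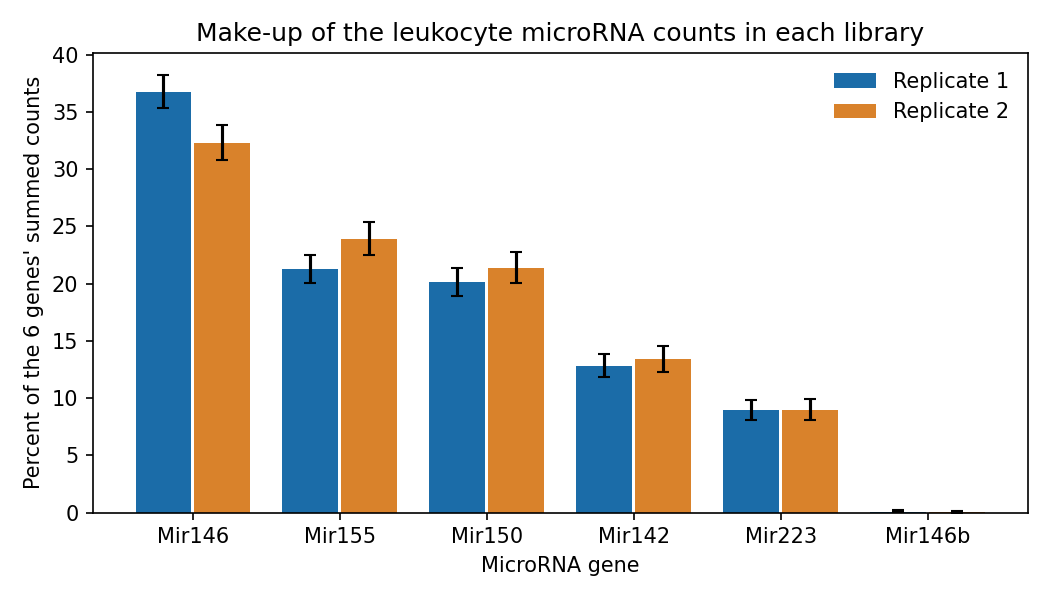
Percent of the summed counts of the 6 genes taken by each, with replicate 1 to the left of replicate 2 and 95% Wilson intervals as bars (counting error only). Mir146 takes 36.8% in replicate 1 and 32.3% in replicate 2, Mir155 takes 21.3% and 23.9%, and Mir223 takes nearly the same share in both.

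The libraries were then compared gene by gene over all 258 genes at 10 CPM in both, with a two-sided exact binomial test given library sizes scaled by the trimmed mean of M-values (TMM). This test sets 1 library against the other, with no error but that of counting, and p-values were adjusted by Benjamini-Hochberg over all genes tested. Log2 ratios are of replicate 1 over replicate 2. At an adjusted p of 0.05, 51.9% of all genes differed, 27.9% higher and 24.0% lower in replicate 1. Of the leukocyte genes, 5 were tested and 1 passed. Mir146 was higher in replicate 1, with a log2 ratio of 0.20 (exact 95% interval 0.09 to 0.31, adjusted p = 0.00098, exact binomial test). Its difference was below 2-fold, as for the others, and a 2-fold call was made for 1.55% of all genes. In edgeR's exact test, which takes in the spread between these same 2 libraries over all genes, the adjusted p of Mir146 was 0.99. There the differences under test also set the error, which limits the calls it can make, so a missing call decides nothing. Over the other exact binomial settings the adjusted p of Mir146 ran from 0.00020 to 0.014.

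Mir155 leaned the other way, at a log2 ratio of −0.15 (exact 95% interval −0.29 to −0.01, adjusted p = 0.055, exact binomial test). It passed with library sizes from total counts (adjusted p = 0.032, exact binomial test) and from DESeq2 (adjusted p = 0.041, exact binomial test), so its call depends on the scaling. Over all its settings the adjusted p ran from 0.0057 to 0.99. Mir150 was at −0.07 (−0.22 to 0.07), Mir142 at −0.05 (−0.23 to 0.13) and Mir223 at 0.01 (−0.21 to 0.24), and none of these passed. The sign for Mir223 turned with total-count sizes. The median log2 ratio of the 5 was −0.05, beside 0.0081 over all 258 genes. Once genes of any count were admitted, Mir146b among them, the median of the 6 turned to 0.01. In size alone the 5 ran from 0.01 to 0.20, with a median of 0.07, beside 0.18 over all tested genes and 0.18 over the 104 genes between 100 and 1000 CPM. The values rest on 307 to 1561 counts per library.

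**Figure D4:**
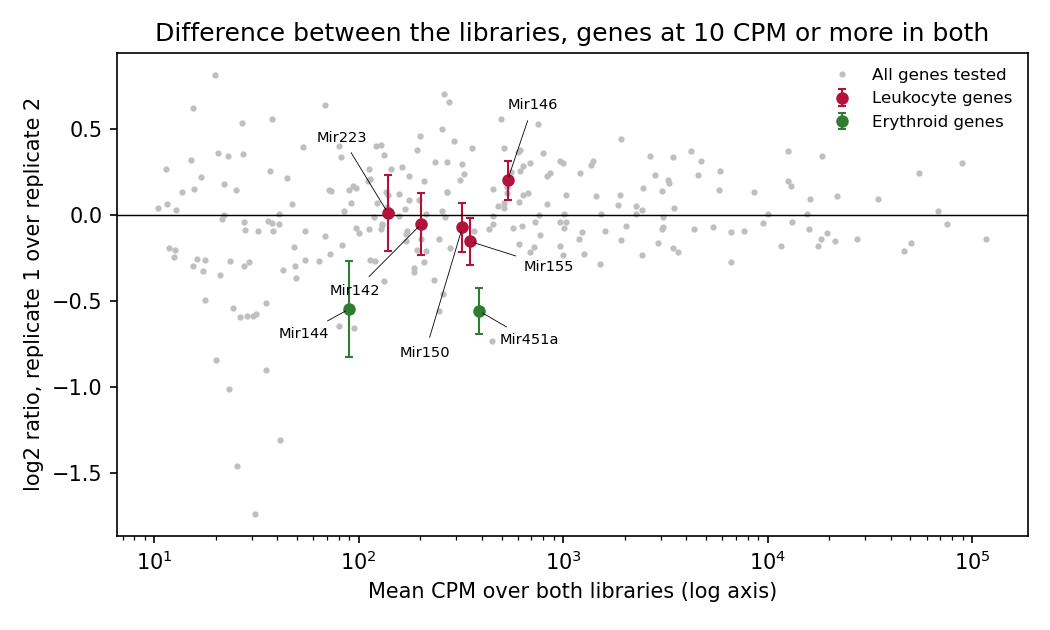
Log2 ratio of replicate 1 over replicate 2, with TMM sizes, against mean CPM on a log axis for the 258 genes tested. Bars on the 5 leukocyte genes (red) and the 2 erythroid genes (green) are exact 95% intervals for counting error; the leukocyte genes lie between −0.15 and 0.20 and the erythroid genes at −0.55 and −0.56.

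Markers of other cells were read in the same libraries. The erythroid genes Mir451a and Mir144, made in red cell precursors and carried in red cells, had 0.0384% of counts in replicate 1 and 0.0571% in replicate 2. Mir451a was at 311 CPM in replicate 1 and 464 in replicate 2, a log2 ratio of −0.56 (adjusted p = 4.3e-16, exact binomial test), and Mir144 was at −0.55 (adjusted p = 0.00027, exact binomial test). In edgeR's exact test neither passed, with an adjusted p of 0.72 for Mir451a and 0.91 for Mir144. The counts of the 6 leukocyte genes were 4.03 times those of the erythroid genes in replicate 1 (exact binomial 95% interval 3.77 to 4.32) and 2.71 times in replicate 2 (2.54 to 2.90). The endothelial gene Mir126a was at 98087 CPM in replicate 1 and 80432 in replicate 2, a log2 ratio of 0.30 (exact 95% interval 0.30 to 0.31). It passed the exact binomial test, higher in replicate 1, as did 27.9% of all genes tested. It did not pass edgeR's exact test (adjusted p = 0.99, edgeR's exact test). Mir122, known from liver, was at 108 and 132 CPM. The part of these cells in the leukocyte values was not tested. Mir206, characteristic of skeletal muscle, ranked 4 of all genes, at 68288 CPM in replicate 1 and 67909 in replicate 2. The 9 skeletal muscle genes had 6.95% of counts in replicate 1 and 6.92% in replicate 2, and all 9 had a count. Nearly all of this was Mir206. Of the 7 tested, the exact binomial test called 2 higher in replicate 1 and 3 lower, beside 27.9% and 24.0% of all genes. Mir499, from within the slow myosin gene Myh7b, was the farthest from 0 among those higher, at a log2 ratio of 0.66, and Mir133b among those lower, at −0.59, and edgeR's exact test called none. Mir1a and Mir133a have paralogous loci, whose reads can map to several places and be in no count. The 6 leukocyte genes together were at 0.0227 times Mir206 in replicate 1 and 0.0228 times in replicate 2.

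Other microRNAs known from blood cell development and immune responses were read from lists of related genes. The name of a list says where its genes are known from. Which cells gave their counts in this bulk tissue was not tested. Of 7 further genes known from myeloid cells, 4 had a count, and all 4 reached 10 CPM in both libraries. Mir511, which lies within the gene of the macrophage mannose receptor Mrc1, was at 28.8 CPM in replicate 1 and 41.6 in replicate 2, with a log2 ratio of −0.51 (adjusted p = 0.041, exact binomial test). It stood at 0.208 times Mir223 in replicate 1 and 0.300 times in replicate 2. Mir34a was at 165 and 210 CPM, and Mir221, which restrains the receptor Kit, was at 165 and 207 CPM. Both were lower in replicate 1, at −0.33 (adjusted p = 0.0014, exact binomial test) and −0.31 (adjusted p = 0.0033, exact binomial test). Mir222 was at 37.5 and 47.5 CPM and did not pass. So 3 of these 4 genes were called lower in replicate 1 and none higher, where 24.0% of all genes tested were called lower. Of the leukocyte genes, Mir223 was at 0.01 and Mir142 at −0.05, and neither was called. With genes at 1 CPM admitted 2 of these 4 were called lower, against 53 of 367 genes in all, and edgeR's exact test called none of the 4. The 3 Mir124a loci of this list, also neuronal, were at 0 counts throughout, with an upper limit of 1.09 CPM for replicate 1 and of 1.36 CPM for replicate 2. Of the 6 neuronal loci, these and the 3 Mir9 loci, 1 count was found in all, for Mir9-3 in replicate 2. Such loci encode identical mature microRNAs, so their reads would map to several loci and be in no count.

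All 11 genes of the lymphocyte development list, the miR-181 genes, Mir342 and the miR-17-92 cluster, had a count, and 8 were at or above 10 CPM throughout. They held 0.542% of counts in replicate 1 and 0.540% in replicate 2. The list was led by Mir17 at 2042 CPM ± 80.2, followed by Mir342, within the gene Evl, at 835 CPM ± 86.1, Mir181b-2 at 775 CPM ± 49.5 and Mir20a at 761 CPM ± 5.51 (SD, n = 2 each). Each of these stood above the mean of Mir146, the highest leukocyte gene. Mir181a, Mir181b, Mir19b and Mir92 have paralogous loci, whose reads can map to several places and be in no count. The values and the share of this list may therefore be too low. Of the 8 tested, 2 were called higher in replicate 1, Mir18 and Mir342, and 1 was called lower, Mir181b-2. Over all genes tested, 27.9% were called higher and 24.0% lower. At 1 CPM none of the list was called lower by the exact binomial test, and edgeR's exact test called none.

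Counts were found for 11 of the 13 genes of the Toll-like receptor and NF-kB response list, and 8 were at or above 10 CPM throughout. They held 2.40% of counts in replicate 1 and 2.31% in replicate 2. Most of this was Mir21a, which many cell types express, with a mean of 16074 CPM ± 598. The clustered genes Mirlet7e, Mir125a and Mir99b had means of 3039 CPM ± 143, of 2278 CPM ± 40.0 and of 1377 CPM ± 185, in that order (SD, n = 2 each). Mir132, induced by Toll-like receptor signalling, was nearer the leukocyte genes, at 258 CPM in replicate 1 and 298 in replicate 2. Mir147, induced in activated macrophages, had 1 count in replicate 1 and none in replicate 2. Reads of the paralogous loci Mir125b-1 and Mir125b-2 of this list can also map to several places and be in no count. Of the 8 tested, 3 were called higher in replicate 1 and 2 were called lower, beside 51.9% of all genes that differed either way. With genes at 1 CPM admitted 4 were called higher and none lower by the exact binomial test. Over all 367 genes, 82 were called higher and 53 lower. The edgeR exact test called none of these genes either.

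**Figure D5:**
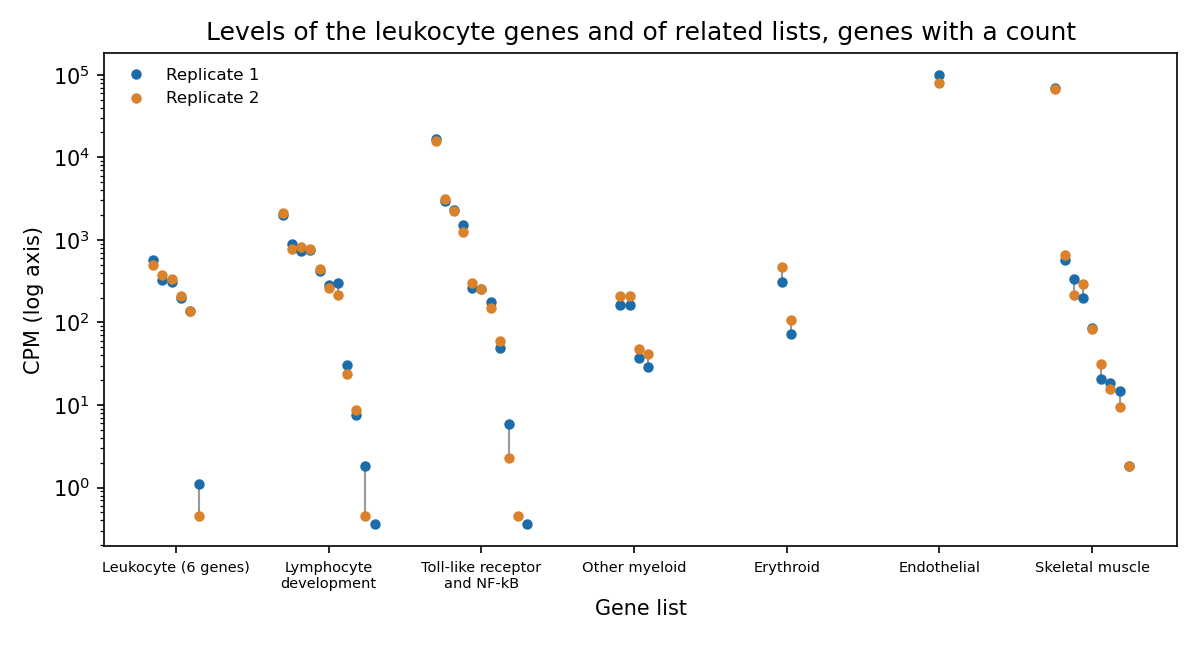
CPM of each gene on a log axis, in replicate 1 (blue) and replicate 2 (orange), for the 6 leukocyte genes and for 6 lists of genes known from related or other cells, within each list in order of mean CPM. Values of 0 are not drawn; 5 leukocyte genes lie within 138.5 to 569 CPM, below Mir17 at 1985 and 2098 CPM and far below Mir126a at 98087 and 80432 CPM.

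The strand on which reads were counted decides the value of Mir142. Mir142b is annotated at chr11:87756841-87756955 on the opposite strand and encloses Mir142. Its mature microRNA, shown with the seed in capitals, is complementary over its 20 bases to miR-142a-3p.
mmu-miR-142b: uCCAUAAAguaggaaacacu

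On its own strand Mir142b had no count in either library, while Mir142 had 543 and 459. In the either-strand column, where a read under both genes belongs to neither alone, Mir142 had 0 counts in both libraries. None of the other leukocyte genes has a microRNA gene on its opposite strand. Of these, Mir150 had 1 opposite-strand count in replicate 1, and the rest had none.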

How the data were processed

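MicroRNA counts came from 2 libraries of 1 group. The authors deposited raw read counts per microRNA gene, in columns for either strand, the gene's own strand and the opposite strand, made on mm10 with annotation M21 per the notes deposited with the tables. The aligner, counter and trimming are not given in the sources used here. Replicate 1 held 10056843 reads, 44.0% of them mapped to several loci and 27.3% assigned to a gene on its own strand. Replicate 2 held 8189059, with 52.1% and 27.0%. Lines that name no gene, 72.7% and 73.0% of reads, stayed out of library sizes and tests.

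All 2202 identifiers matched GENCODE vM21. CPM was computed from own-strand counts over all gene rows. Library sizes were scaled by TMM in edgeR 4.0.16 (R 4.3.3) over genes at 10 CPM in both libraries. Genes were compared by exact binomial tests in SciPy 1.17.1, which were also run on simulated data. With 1 library on each side no residual degrees of freedom are left for a quasi-likelihood test. Alternatives were total-count and DESeq2 1.42.0 sizes, filters at 1 CPM, any count and 100 CPM, the either-strand column, hairpin length and edgeR's exact test. Folding used RNAfold 2.7.2. Intervals and the 3-count limit cover counting error only, since PCR reads are not independent molecules.

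The 6 genes, the lists and the tests were chosen with earlier results of these data known. Named were the 6 genes, their neighbours in mean CPM, opposite-strand and same-seed genes, and up to 4 genes per list. Further list genes were named after their values were seen. The lists were lymphocyte development, Toll-like receptor and NF-kB response, myeloid, erythroid, endothelial, skeletal muscle, liver and neuron.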

Additional observations from a re-analysis of the deposited data

Results flagged for a closer look

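In the opposite-strand column, which no comparison above uses, Mir142b had 543 counts in replicate 1 and 459 in replicate 2, above the 3 counts that a count of 0 allows. These are the counts that Mir142 had on its own strand. With 1 group of 2 libraries, neither a sample that stands apart from its group nor a contrast between groups was open to a test.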

How the results depend on the processing

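No paired analysis was possible because there is 1 group. The share of the 6 genes, 0.155%, was 0.0420% over all reads, by a larger denominator. It was 0.175% with either strand counted and 0.175% without the most abundant gene, both by smaller denominators. In the either-strand column Mir142 had 0 counts, and assigned counts were 2096446 in replicate 1 and 1702939 in replicate 2. Per hairpin length the ratios were 1.56 for Mir150 over Mir142, 2.51 for Mir142 over Mir223 and 1364 for Mir146 over Mir146b. Leaving out each replicate in turn gave shares that both round to 0.155%, and ratios of 1.35 to 1.73 for Mir146 over Mir155, 1.06 to 1.12 for Mir155 over Mir150, 1.57 to 1.60 for Mir150 over Mir142, 1.43 to 1.5 for Mir142 over Mir223 and 520.3 to 1107 for Mir146 over Mir146b. Without a replicate no ratio between the libraries can be made. The log2 ratio of Mir223, 0.01 and not past the test, was −0.0035 with total-count sizes and −0.038 at 100 CPM. Of the 5 leukocyte genes tested, Mir155 alone was called lower in replicate 1 with total-count sizes, with DESeq2 sizes and at 100 CPM. Of all genes, 67 of 258, 65 of 258 and 62 of 178 were called lower under these settings, in that order. With TMM sizes at 10 CPM, 0 of the 5 were called lower, against 62 of 258 genes in all. There 2 of the 5 had an unadjusted p under 0.05 by the exact binomial test, as did 143 of the 258. Mir146 passed, higher in replicate 1, under all alternatives of the exact binomial test. In edgeR's exact test 0 of the 5 tested were called, with 0 at an unadjusted p, and Mir146b was not tested. Over all genes edgeR's exact test called 0 higher and 3 lower in replicate 1 (17 at an unadjusted p), against 72 and 62 by the exact binomial test. The 4 genes called at 2-fold were 11 at 1 CPM, 10 with any count and 0 at 100 CPM, where 0 passed 2-fold at an unadjusted p. All 6 mean levels moved by more than their SD over all reads, and those of the 5 tested genes also with either strand counted and without the most abundant gene. These moves of the levels come from the changed denominators and, for Mir142 with either strand counted, from its 0 counts there. Where no construction gives the other changes above, their cause was not tested. Mir146b, at 3 counts and 1 count, is at the limit of depth.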

Other observations

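The hairpins of 5 leukocyte genes, without Mir150, were folded with RNAfold. The predicted energy per base was −0.42 kcal per mol for Mir142, −0.42 for Mir155, −0.41 for Mir146, −0.40 for Mir223 and −0.37 for Mir146b, beside a median of −0.43 over the 220 RefSeq hairpins of genes that passed the 10 CPM minimum. Of these 220, 132 had a lower energy per base than Mir142 and 189 a lower one than Mir146b. Mir142b, with no own-strand count, was at −0.44.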
